A study of Mus musculus with 2 samples.

Results

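The genes described here encode Mediator and the machinery that RNA polymerase II uses to start transcription. They were chosen by name alone: a probe set of the array counted when its annotation held exactly 1 gene symbol and that symbol began with Med or Taf and a digit, with Polr2 and a letter, or with Gtf2. This gave 98 probe sets for 65 of the 12393 genes named on the array, made up of 27 Mediator genes, 9 genes of TFIID, 6 genes with TAF names whose products work outside TFIID, 11 RNA polymerase II genes and 12 genes of the general factors. RNA of NIH 3T3 cells (fibroblasts derived from mouse embryos) was measured on 2 Affymetrix arrays. The ATCE1-C-del array came from cells transfected with the pCMV-HA-ATCE1-C-del plasmid, which drives a form of the transcription factor ATCE1 that lacks its C terminus and is described as nuclear. The empty vector array came from cells given pCMV-HA without insert (the sample titles spell these plasmids pHA-CMV-ATCE1-C-del and pHA-CMV), and in both cases RNA was taken 48 hours after transfection with Lipofectamine. The sources used here do not give the share of cells that took up plasmid. With 1 array per group there is no replicate, no error and no test, so every difference below compares these 2 arrays only.

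RNA polymerase II transcribes the protein-coding genes. At a promoter it is placed by the general factors TFIIA, TFIIB, TFIID, TFIIE, TFIIF and TFIIH, of which TFIID binds core promoter DNA through the TATA-binding protein and its TAF subunits. Mediator is a large complex that connects DNA-bound activators to this assembly, activators mostly touching its tail and the polymerase touching its head and middle. CREB family factors such as ATCE1, whose gene is now named Creb3l4, are activators that reach this machinery partly through coactivators and TAFs.

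The values are MAS5 signals, a linear intensity per probe set, and a log2 ratio is ATCE1-C-del over empty vector. A signal under 77.4, the higher of the median signals of the arrays, was set to that floor before the ratio was taken, and a gene was measured where at least 1 array lay at or above it. Each gene was read from its brightest probe set. The targeted gene Creb3l4 read 18 with ATCE1-C-del and 20.7 with the empty vector, below the floor in each case, so it does not check the labels. The sources used here do not say whether its probes lie within the insert. All 14 fibroblast markers were measured, with summed signals of 48654 with ATCE1-C-del and 49354 with the empty vector. None of 10 epithelial, 9 muscle and 9 endothelial markers reached the floor, with summed signals of 126.5, 94.2 and 37.8 with ATCE1-C-del and of 102.8, 72.6 and 66.8 with the empty vector. Of 9 macrophage markers 2 were measured, with summed signals of 327.0 with ATCE1-C-del and 255.4 with the empty vector.

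Of the 65 genes chosen by name, 60 were measured, and none of these had a floored ratio of 1.5-fold or more in either direction. The names do not take in every subunit of the complexes. Of the 60 genes, 56 lay above the floor on both arrays and 4 on 1 array. The 5 genes that were not measured were Taf7, Taf7l, Gtf2a1l, Taf1a and Gtf2ird2. Taf7 is a TFIID subunit, and Taf7l and Gtf2a1l are relatives of TFIID and TFIIA subunits that work in germ cells. Taf1a is a factor of RNA polymerase I, and Gtf2ird2 belongs to the TFII-I family. The brightest signals of these 5 genes lay between 5.6 and 71.7 with ATCE1-C-del and between 0.90 and 72.7 with the empty vector. At 1.5-fold, 0 of the 60 measured genes were higher and 0 lower, where 0.899% of all 6785 measured genes were higher and 1.08% lower. At a log2 ratio of at least 0.32 in either direction, a smaller step used throughout below, 5 members (8.33%) were higher and 3 (5%) lower, beside 6.65% and 7.93% of all measured genes. Those shares lie near the background. Log2 ratios above 0 were found for 33 of 60 members, or 55.0%, against 48.5% of all measured genes, and the median was 0.05 against -0.01. Each direction holds relative to the remaining genes measured: scaled to 18 hybridisation control probe sets, whose median log2 ratio was -0.25, all measured genes had a median of 0.23 and the members one of 0.30, and 52 of 59 measured members lay above 0. The 7 that then stayed below 0 were Polr2a, Med20, Taf8, Med4, Gtf2h1, Med29 and Med6, and each other member given a negative ratio below lay above 0 under that scaling or was not measured.

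**Figure D1:**
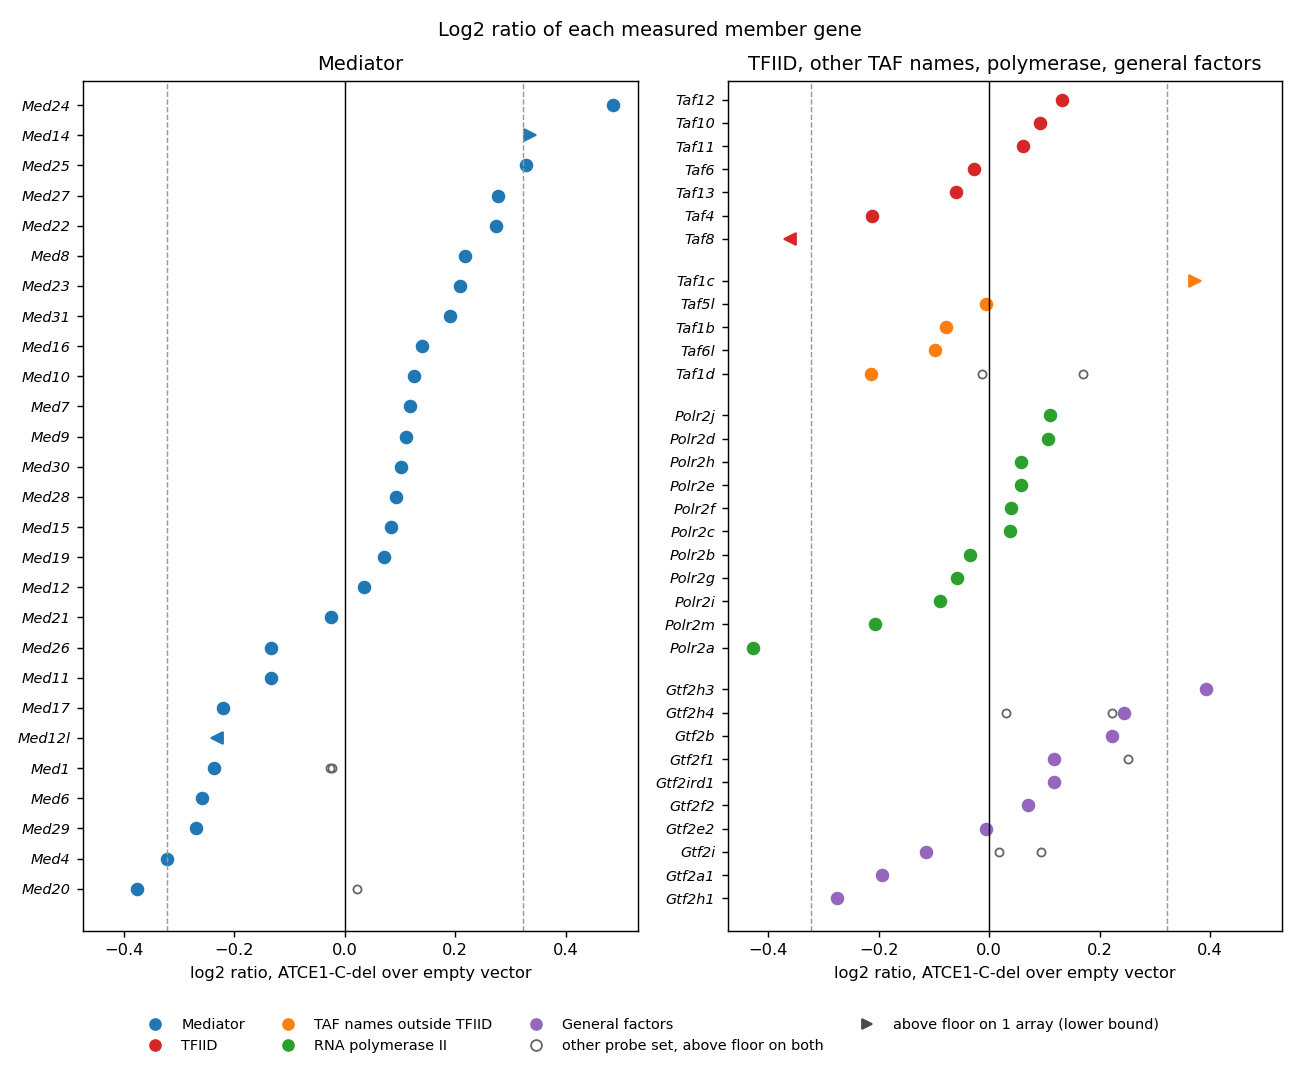
Log2 ratio (horizontal axis) of each of the 60 measured genes (rows), with Mediator on the left and the other classes on the right. Filled circles are the brightest probe set, open circles other probe sets above the floor on both arrays, triangles lower bounds with 1 array under the floor, and dashed lines a log2 ratio of 0.32 on either side. All 60 lie between -0.43 and 0.48.

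**Figure D2:**
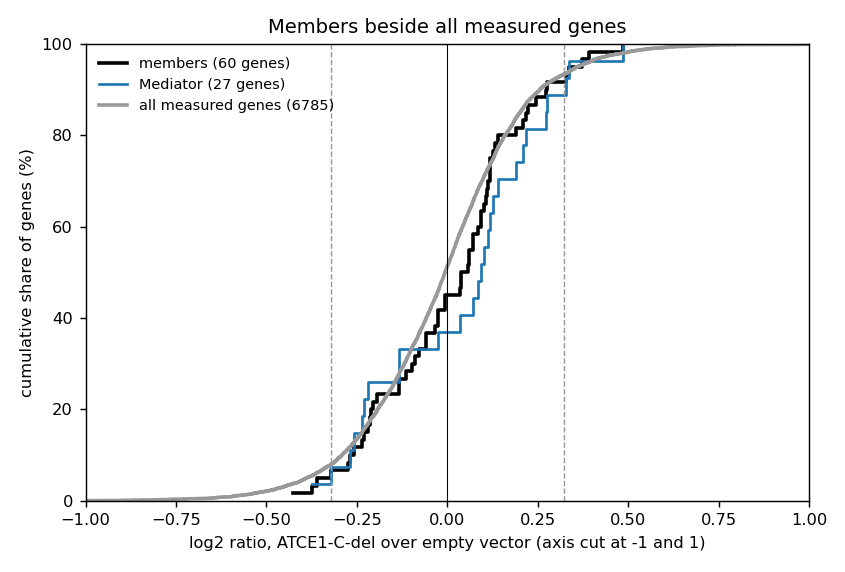
Cumulative share of genes (vertical axis, percent) by log2 ratio (horizontal axis) for the 60 members, the 27 Mediator genes and all 6785 measured genes. The curve of the members runs close to that of all genes, with medians of 0.05 and -0.01, and the Mediator curve lies to the right of it around its median of 0.09.

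Within Mediator, the tail genes were all higher with ATCE1-C-del, while the head genes lay on both sides of 0. All 27 Mediator genes were measured, 17 of them (63.0%) higher and 10 of them lower. Of all measured genes 48.5% were higher, the background for each such count of a module or class below. Their median log2 ratio was 0.09, or 0.10 above the median of all genes. At the step of 0.32, 3 (11.1%) were higher and 1 (3.70%) lower, beside 6.65% and 7.93% of all measured genes. Med14, among those 3, lay above the floor on 1 array only. The modules were assigned from general knowledge of the complex, and their values were seen before they were compared.

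The tail takes contacts from many activators. Its gene Med24 had 181.8 with ATCE1-C-del and 129.9 with the empty vector, 1.40-fold higher. This was the largest difference of any of the 56 genes above the floor on both arrays. Med25, the target of activators such as those of the ETS and ATF6 families, had 310.9 with ATCE1-C-del and 247.6 with the empty vector, 1.26-fold higher. Med23, which receives signals from the Ras and MAP kinase pathway through ELK1, had 256.8 with ATCE1-C-del, against 222.2 with the empty vector, 1.16-fold higher. The other two tail genes were closer to level. Med16 had 589.6 with ATCE1-C-del and 534.9 with the empty vector, a log2 ratio of 0.14. Med15, bound by SREBP and by SMAD proteins, had 252.1 with ATCE1-C-del, against 237.8 with the empty vector, a log2 ratio of 0.08. The median of the 5 was 0.21 and that of the 22 other Mediator genes 0.05, and 12 of those 22 were higher. Each tail gene rests on 1 probe set above the floor, and 5 genes read on a pair of arrays give no measure of error. Under the 11 alternative settings that measured tail genes, each one measured lay above 0, the lowest at 0.08. This adds little, since a lower floor or averaging of probe sets could not alter genes read from 1 probe set above the floor. The floor at the 75th percentile measured 1 tail gene, and Med24 was lost without probe sets whose ID marks possible multiple matches. Scaling to the hybridisation controls raised the median of all measured genes to 0.23.

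Med14, the scaffold that joins the modules, had 97.7 with ATCE1-C-del and 73.4 with the empty vector. The second value lies under the floor, so the gene was at least 1.26-fold higher by the floored ratio.

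The head, which contacts the polymerase and its general factors, had 3 of 7 genes higher and a median of -0.13. Med20 had 445.3 with ATCE1-C-del and 577.6 with the empty vector, 1.30-fold lower, but its second probe set, at 278.9 with ATCE1-C-del and 274.5 with the empty vector, had a log2 ratio of 0.02. Med6 had 181.7 with ATCE1-C-del and 217.3 with the empty vector, a ratio of -0.26. Med17, a central subunit of the head, had 249.8 with ATCE1-C-del, against 291.0 with the empty vector, a ratio of -0.22. In the other direction, Med22 had 225.2 with ATCE1-C-del and 186.3 with the empty vector, a ratio of 0.27. Med8, which pairs with Med18 and Med20 in yeast, had 973.2 with ATCE1-C-del, against 837.1 with the empty vector, a ratio of 0.22. Med11 and Med19 were the nearest to level, at -0.13 and 0.07. The 7 ratios ran from -0.38 to 0.27, the low end being Med20 by its brighter probe set.

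The subunits between head and tail that animals have, Med27 to Med30, were also mixed. Med27 had 270.6 with ATCE1-C-del and 223.4 with the empty vector, a log2 ratio of 0.28. Med29 had 106.5 with ATCE1-C-del, against 128.4 with the empty vector, a ratio of -0.27. Med28 had 995.1 with ATCE1-C-del and 932.7 with the empty vector, and Med30 had 597.2 with ATCE1-C-del and 556.5 with the empty vector, ratios of 0.09 and 0.10.

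In the middle module 4 of 8 genes were higher and 4 lower, with a median of 0.04. Med1, the subunit that nuclear receptors bind, had 360.9 with ATCE1-C-del and 424.9 with the empty vector, a log2 ratio of -0.24. Its next 2 probe sets were at 329.9 and 145.8 with ATCE1-C-del and at 335.9 and 148.1 with the empty vector, ratios of -0.03 and -0.02, so the size of its difference depended on the probe set. Med4 had 240.1 with ATCE1-C-del and 300.1 with the empty vector. Its ratio of -0.3218 falls just short of the step of 0.3219, while Med25 lies just past it at 0.33. Med26, which binds elongation factors, had 80.7 with ATCE1-C-del, against 88.5 with the empty vector, a ratio of -0.13 close to the floor. Med7 and Med21, which form the hinge of the middle module, were at 0.12 and -0.03. Med9, Med10 and Med31 were at 0.11, 0.13 and 0.19.

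The kinase module holds CDK8 or its paralog with cyclin C and can hold Mediator away from the polymerase. Med12, which activates the kinase, had 258.7 with ATCE1-C-del and 252.5 with the empty vector, a log2 ratio of 0.03. Its relative Med12l had 57.2 with ATCE1-C-del, against 90.9 with the empty vector, at least 1.17-fold lower, the first of these being under the floor. The kinase gene Cdk8, not a member by name, had 336.0 with ATCE1-C-del and 455.1 with the empty vector, a log2 ratio of -0.44. Ccnc, which encodes cyclin C, had 145.0 with ATCE1-C-del, against 136.9 with the empty vector, a ratio of 0.08.

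**Figure D3:**
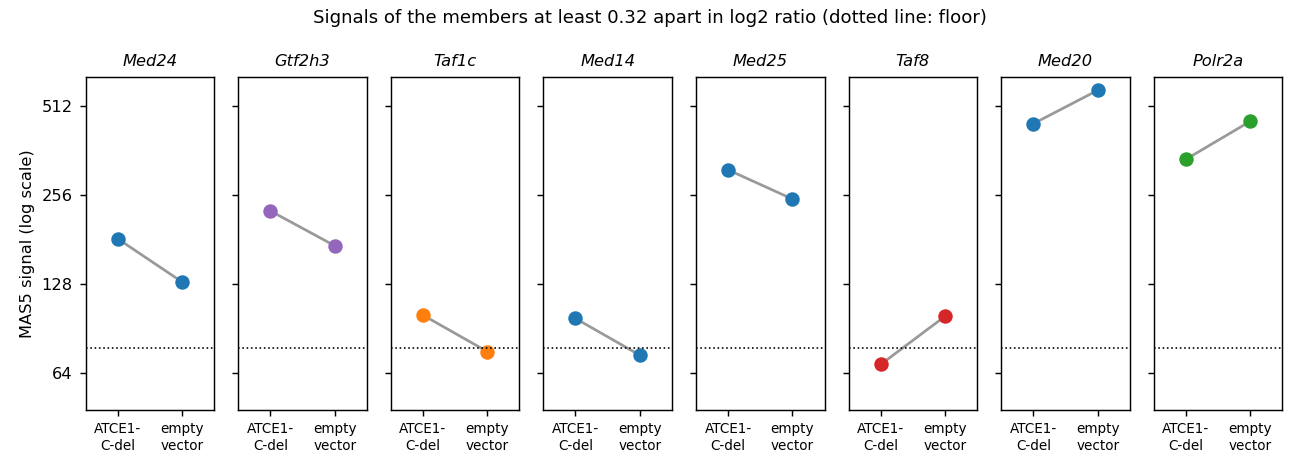
MAS5 signal (vertical axis, log scale) on the ATCE1-C-del array (left point) and the empty vector array (right point) for the 8 members at least 0.32 apart in log2 ratio, with the floor of 77.4 as a dotted line. Med24, Gtf2h3, Taf1c, Med14 and Med25 are higher with ATCE1-C-del and Taf8, Med20 and Polr2a lower, and 1 signal each of Taf1c, Med14 and Taf8 lies under the floor.

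Most polymerase genes were level and the gene of the largest subunit was lower. All 11 Polr2 genes lay above the floor on both arrays, 6 of them higher and 5 lower, and had a median log2 ratio of 0.04. Polr2a, which encodes the largest subunit with the catalytic centre and the repeated C-terminal domain, had 337.5 with ATCE1-C-del and 453.8 with the empty vector, 1.34-fold lower. This placed it at the 3.77th percentile of all measured genes. Its other probe set was below the floor on both arrays, at 54.9 with ATCE1-C-del and 57.3 with the empty vector, and so gives no second reading. Polr2b, which encodes the second-largest subunit and shares the catalytic centre, had 646.7 with ATCE1-C-del and 662.1 with the empty vector, a ratio of -0.03. Both products are needed in each polymerase, and the difference between their ratios was not tested.

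The smaller subunits were close together. The pair Polr2c and Polr2j, which start polymerase assembly in the manner of bacterial alpha subunits, were at 588.8 and 661.8 with ATCE1-C-del and at 573.9 and 613.0 with the empty vector, log2 ratios of 0.04 and 0.11. Polr2d and Polr2g form the stalk, and were at 0.11 and -0.06. Polr2i, whose yeast counterpart helps transcription fidelity, was at -0.09. Polr2e, Polr2f and Polr2h, shared with polymerases I and III, had ratios of 0.06, 0.04 and 0.06. Polr2g had 1806.8 with ATCE1-C-del, against 1880.6 with the empty vector. Polr2m, which encodes a protein that binds the polymerase and makes it depend on Mediator, had 948.4 with ATCE1-C-del and 1094.1 with the empty vector, a ratio of -0.21.

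TFIID genes lay on both sides of 0. Of 9 on the array 7 were measured, 3 of them higher and 4 lower. Their median log2 ratio of -0.03 is -0.02 relative to all genes, and was above 0 with a floor at the 25th or 75th percentile, with no floor, with genes above the floor on both arrays, without probe sets whose ID marks possible matches to several transcripts, and when scaled to the hybridisation controls. Taf8 had 68.3 with ATCE1-C-del and 99.4 with the empty vector, at least 1.28-fold lower, with the first signal under the floor. Taf4, a subunit that CREB can contact, had 103.1 with ATCE1-C-del and 119.4 with the empty vector, a ratio of -0.21. Taf12, its histone-fold partner, had 195.5 with ATCE1-C-del, against 178.4 with the empty vector, a ratio of 0.13. Taf10, shared with the SAGA coactivator, had 1366.5 with ATCE1-C-del and 1281.5 with the empty vector, a ratio of 0.09. The histone-fold pair Taf11 and Taf13 were at 0.06 and -0.06, and Taf6 at -0.03. Tbp itself, not a member by name, had 334.4 with ATCE1-C-del and 303.0 with the empty vector, a ratio of 0.14.

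Genes with TAF names outside TFIID were measured for 5 of 6, with 1 higher and 4 lower and a median of -0.08. Taf1c, of the factor that loads RNA polymerase I, had 100.3 with ATCE1-C-del and 75.5 with the empty vector, at least 1.30-fold higher, the second signal being under the floor. Its partners in that factor had ratios below 0: Taf1b had 286.5 with ATCE1-C-del, against 302.6 with the empty vector, a log2 ratio of -0.08, and Taf1d had 162.9 with ATCE1-C-del, against 188.9 with the empty vector, a ratio of -0.21. The other probe sets of Taf1d were at -0.01 and 0.17. The SAGA genes Taf5l and Taf6l were at -0.01 and -0.10.

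Among the general factors, 6 of 10 measured genes were higher and 4 lower. Their median log2 ratio was 0.09. The TFIIH genes lay on both sides of 0. Gtf2h3, of the TFIIH core, had 225.9 with ATCE1-C-del and 172.2 with the empty vector, 1.31-fold higher. Gtf2h4, which holds the helicase XPB in TFIIH, had 646.2 with ATCE1-C-del and 545.8 with the empty vector, a ratio of 0.24, with its other probe sets at 0.22 and 0.03. Gtf2h1, which binds TFIIE and many activators, went the other way, at 552.4 with ATCE1-C-del, against 668.4 with the empty vector, a ratio of -0.28. Gtf2b, which encodes TFIIB, the bridge between TFIID and the polymerase, had 635.0 with ATCE1-C-del and 544.5 with the empty vector, a ratio of 0.22 from its single probe set.

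The TFIIF genes Gtf2f1 and Gtf2f2 were at 0.12 and 0.07, and the second probe set of Gtf2f1 was at 0.25. Gtf2a1, the precursor of the large TFIIA subunits, had 239.5 with ATCE1-C-del and 273.9 with the empty vector, a ratio of -0.19. Gtf2e2 of TFIIE was level, at -0.01. The TFII-I family binds DNA as separate transcription factors and was counted among the general factors here because of its name. Gtf2i had 1644.3 with ATCE1-C-del and 1779.6 with the empty vector, a ratio of -0.11, with other probe sets at 0.02 and 0.09, and Gtf2ird1 was at 0.12.

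The only spread these arrays offer is that between probe sets of the same gene. It holds no variation between cultures, transfections or arrays, so a ratio larger than this spread is not thereby beyond error. Over 2440 genes with at least 2 probe sets above the floor on both arrays, 1 probe set carried an SD of 0.20 (log2) from this source, and the 2 brightest lay on the same side of 0 in 60.2%. Among the members 6 genes had such a pair, 4 of them on the same side. The SD of the log2 ratios over the 60 members was 0.21. Of these 60 ratios, 36 were smaller in size than the SD of 1 probe set.

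Genes that work beside these were counted in 5 lists. Of all measured genes, 48.5% were higher, and at the step of 0.32, 6.65% were higher and 7.93% lower. Of 9 partners with other names, all were measured, 6 of them higher and 3 lower. The median log2 ratio was 0.08. They comprise Tbp and its relative, the kinases and cyclins of TFIIH and Mediator, and the TFIIH helicases, from Ercc2 at 0.26 to Cdk8 at -0.44. Cdk7, the kinase of TFIIH, had 328.5 with ATCE1-C-del and 363.1 with the empty vector, a ratio of -0.14. Of 25 measured pausing and elongation factors, 16 (64%) were higher. At the step of 0.32, 2 (8%) were higher and 4 (16%) lower, and the median was 0.05. Paf1, of the elongation complex named after it, had 105.9 with ATCE1-C-del and 74.4 with the empty vector, at least 1.37-fold higher. Aff1, of the super elongation complex, had 174.6 with ATCE1-C-del, against 242.4 with the empty vector, a log2 ratio of -0.47.

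CTD phosphatases and assembly factors had 8 of 16 genes higher, 0 past the step of 0.32 and a median of -0.01, from Rprd1a at 0.31 to Pcf11 at -0.22. SAGA and ATAC partners had 9 of 16 higher and a median of 0.02, from Sgf29 at 0.47 to the scaffold Trrap at -0.33. Polymerases I and III transcribe ribosomal RNAs and small noncoding RNAs. Their subunits had 6 of 13 genes higher, 0 past the step of 0.32 and a median of -0.08. The range ran from Polr3d at 0.23 to Polr3a at -0.29. None of the genes in these 5 lists passed 1.5-fold.

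**Figure D4:**
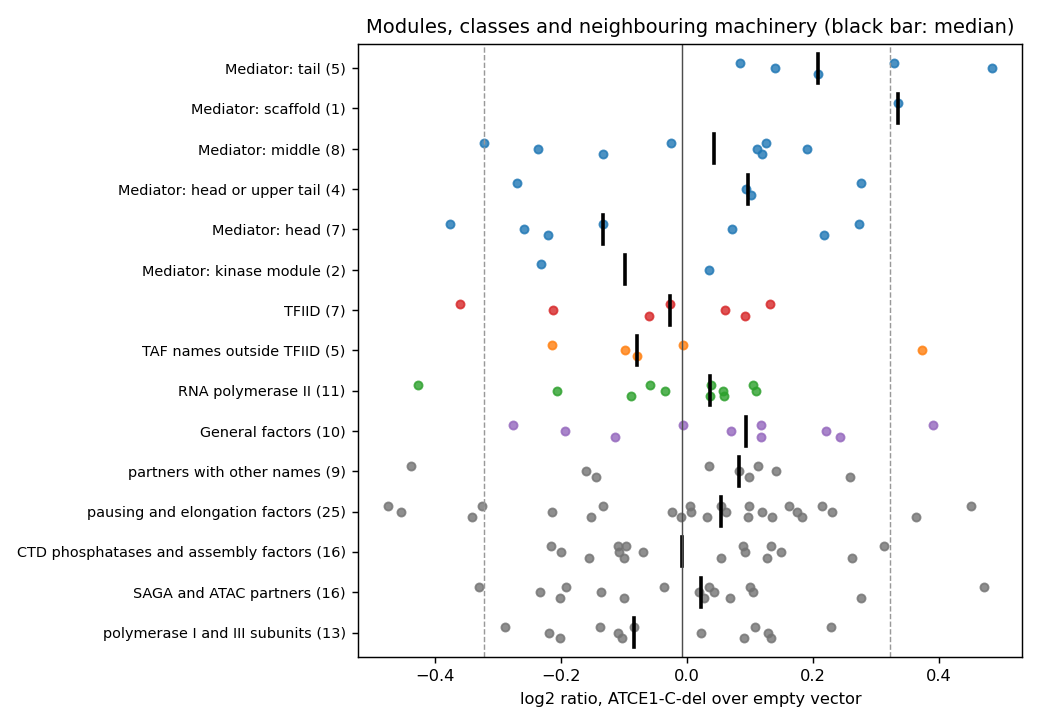
Log2 ratio (horizontal axis) of the genes in each Mediator module, each other class and 5 lists of neighbouring machinery (rows, number of measured genes in brackets), with black bars at the medians, dashed lines at 0.32 on either side and a thin line at the median of all genes. The 5 tail genes all lie above 0, around a median of 0.21, and the other rows straddle 0 or hold 1 gene.

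Promoters were searched for the elements that CREB family factors bind, because the plasmid given on one side of the comparison codes for such a factor. RefSeq windows of 300 bases (250 before and 50 after a gene start, GRCm38.p6) were at hand for 57 of the 65 genes. The full CRE, TGACGTCA, which reads the same on both strands, was in the windows of 3 members, or 5.26%, against 2.03% of all 27018 genes with a window. All 3 belong to the 53 measured members with a window, a share of 5.66%, against 3.83% of the 5610 measured genes with one. These 3 are shown 5′ to 3′ on the strand of the gene, with the CRE in capitals, because this is the strict form of the element. Gtf2f1 is at chr17:57011239-57011538 on the minus strand, Med21 at chr6:146642329-146642628 on the plus strand and Taf11 at chr17:27907695-27907994 on the minus strand, the last being 1 of 2 windows of that gene.

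Gtf2f1: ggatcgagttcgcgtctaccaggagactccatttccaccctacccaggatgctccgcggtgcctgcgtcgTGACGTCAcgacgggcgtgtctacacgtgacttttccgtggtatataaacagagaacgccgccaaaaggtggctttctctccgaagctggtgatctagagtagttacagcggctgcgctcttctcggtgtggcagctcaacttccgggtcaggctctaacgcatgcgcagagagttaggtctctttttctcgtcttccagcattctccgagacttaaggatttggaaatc
Med21: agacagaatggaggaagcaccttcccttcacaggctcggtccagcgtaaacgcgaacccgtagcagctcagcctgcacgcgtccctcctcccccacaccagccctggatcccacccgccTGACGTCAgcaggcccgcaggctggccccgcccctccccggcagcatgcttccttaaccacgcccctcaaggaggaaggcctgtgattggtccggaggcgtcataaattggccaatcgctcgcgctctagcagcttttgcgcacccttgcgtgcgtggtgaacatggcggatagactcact
Taf11: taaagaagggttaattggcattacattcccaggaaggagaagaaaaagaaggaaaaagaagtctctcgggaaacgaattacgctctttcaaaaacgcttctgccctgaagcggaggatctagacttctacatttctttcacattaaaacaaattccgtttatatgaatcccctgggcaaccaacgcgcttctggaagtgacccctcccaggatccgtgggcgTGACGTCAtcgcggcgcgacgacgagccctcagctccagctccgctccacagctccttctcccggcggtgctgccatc

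The element begins 180 bases before the gene start in Gtf2f1, 131 before it in Med21 and 28 before it in Taf11. None of these genes reached the step of 0.32. Gtf2f1 had 351.1 with ATCE1-C-del and 323.6 with the empty vector, Med21 had 208.1 with ATCE1-C-del and 211.8 with the empty vector, and Taf11 had 125.8 with ATCE1-C-del and 120.6 with the empty vector, so that the log2 ratios were 0.12, -0.03 and 0.06. A related element of the CREB3 group, TGACGTGG on either strand, was in the window of 1 measured member, Med31, a share of 1.89% against 1.23% of the measured genes. Med31 had 277.6 with ATCE1-C-del and 243.2 with the empty vector, a ratio of 0.19.

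The shorter core of the CRE, TGACG on either strand and contained in both elements above, was in the windows of 24 members, all of them measured. This is 45.3% of the measured members, against 39.0% of the measured genes, and 42.1% of the 57 members, against 23.0% of all genes with a window. Of the 24, 16 were higher with ATCE1-C-del, with a median log2 ratio of 0.09. Of the 29 measured members without it, 12 were higher, with a median of -0.08. Over all measured genes the same division gave 51.2% higher of 2186 with the element and 47.0% of 3424 without it, and medians of 0.01 and -0.01. Both groups of members ran over nearly the same range, from -0.43 to 0.39 with the element and from -0.36 to 0.34 without it. Polr2a and Gtf2h3, at the ends of the first range, both carry it.

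Other core promoter letters were counted in the same windows on both strands. Among measured members the ETS core CCGGAA was in 50.9%, the GC box GGGCGG in 66.0%, CCAAT in 41.5% and TATAAA in 17.0%, against 35.7%, 73.4%, 43.6% and 8.16% of all measured genes. Set against all genes with a window, measured or not, the order turned for the GC box and the gap narrowed for TATAAA. The ETS core was then in 50.9% of the 57 members, the GC box in 64.9%, CCAAT in 40.4% and TATAAA in 17.5%, against 16.7%, 38.2%, 41.1% and 15.7% of all genes. A match of letters does not show that a factor binds there.

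Members divided by these other letters also differed in their counts. By the GC box, 14 of 35 measured members with it were higher, with a median log2 ratio of -0.03, and 14 of 18 without it, with a median of 0.09. By TATAAA, 6 of 9 with it and 22 of 44 without it were higher. By the ETS core the counts were 15 of 27 and 13 of 26, and by CCAAT 11 of 22 and 17 of 31. Over all measured genes, 47.9% with the GC box and 50.6% without it were higher, and 49.1% and 48.6% for TATAAA. The shares were 50% and 47.9% for the ETS core and 50.8% and 46.9% for CCAAT. These divisions share the same members and none was tested.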

How the data were processed

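RNA of 1 sample per group was measured on 2 arrays. The authors deposited linear intensity values made with MAS5, per the submitters' processing notes. The sources used here give no version, target value or detection call. Each array held 22690 probe sets, of which 64 controls stayed out of the comparison. Groups were taken from the sample titles.

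Each array was scaled to a common mean after trimming 2% at each end (250.1 on both as deposited). Signals were then floored at 77.4 and compared as log2 ratios. A single floor for both arrays was used because separate floors can turn the sign of a ratio near them. Symbols came from the platform annotation, and 0 member symbols differed from RefSeq (GRCm38.p6, used for names and promoter windows). The number of arrays limits the precision, and changes were counted at 1.5-fold and at 1.25-fold, a log2 ratio of 0.3219 written 0.32. The procedure was tested on simulated data. Members were picked by the name rule, and that rule, the lists and the comparisons were set with earlier results of these data known. All members may be named. Both signals are given for those at least 0.32 apart in log2 ratio, for the extremes and brightest of each class and for Polr2a, Med1, Med12 and Gtf2b, and for others that help to show a module. From the neighbouring lists the highest and lowest gene, Tbp, Cdk8, Ccnc and Cdk7 are named. The 12 alternatives covered scaling, floor, log scale and choice of probe set. Python 3.11.15, numpy 2.4.6, pandas 2.3.3, statsmodels 0.14.6 and matplotlib 3.10.9 were used.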

Additional observations from a re-analysis of the deposited data

Results flagged for a closer look

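A probe set whose annotation names both Gm12372 and the TFIID gene Taf9 took no part in the comparison, since it has more than 1 symbol, and was 1.26-fold higher with ATCE1-C-del, at 1587.5 against 1263.6 with empty vector. It was singled out as a signal outside the comparison that was above the control level by a log2 ratio of at least 0.32. The other 2 probe sets that name Taf9 were at log2 ratios of -0.20 and -0.01.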

How the results depend on the processing

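With 1 array per group no replicate could be left out. No paired analysis was possible because each group holds a single array. A value was taken as moved when it changed by more than the SD of 1 probe set, divided by the root of the number of genes for medians. Of 69 medians relative to all genes recomputed under the alternatives, 68 stayed within this, and 1 moved, that of Mediator to -0.038 with second-brightest probe sets (3 genes). The limit is wide beside medians near 0, so a median could change sign within it. That of TFIID, -0.020 as reported, counted as unmoved at 0.068 when probe sets whose ID marks possible multiple matches were left out (5 genes). A shift shared by all genes largely cancels in such medians, so they cannot show an effect of scaling. Staying within the limit is therefore no measure of stability. The count at least 1.5-fold higher was 2 when scaled to the hybridisation controls (Gtf2h3 and Med24, against 5.22% of all genes) and 1 with the floor at the 25th percentile (Taf7l, against 6.60%), where 1 was lower (Med12l, against 2.90%). The count higher by a log2 ratio of at least 0.32, 5 as reported, was 25 when scaled to the hybridisation controls, against 32.3% of all genes, 3 with only genes above the floor on both arrays (6.24% of all genes), 2 without probe sets whose ID marks possible multiple matches (42 members, 6.99%), and 0 both with the floor at the 75th percentile (24 members, 3.71%) and with second-brightest probe sets (7 members, 8.86%). The count lower by as much, 3 as reported, was 0 when scaled to the hybridisation controls (1.21%), 1 without multiple-match probe sets (8.43%) and 0 with second-brightest probe sets (9.28%). Med20 turned to 0.023 with second-brightest probe sets and without the multiple-match ones. Of 304 values of 30 named genes under the alternatives, 290 kept their sign. Gtf2h3 and Med24 stayed past 0.32 in all 9 alternatives that measured them. Both were read from probe sets whose ID marks possible multiple matches, so neither was measured without such probe sets. Neither was measured with the floor at the 75th percentile or with second-brightest probe sets. Signals near the floor, as for Med14, Taf1c, Taf8 and Med12l, give bounds only.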

Other observations

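The remaining polymerase subunits shared by polymerases I, II and III were read only by probe sets with more than 1 symbol. The probe set that names Polr2k together with LOC100862456 read 454.1 with ATCE1-C-del, against 607.2 with empty vector, 1.34-fold lower. The probe set that names Polr2l together with Usp50 read 889.8 with ATCE1-C-del and 855.6 with the empty vector, a log2 ratio of 0.06.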
